A study of Drosophila melanogaster with 20 samples.

Results

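The 34 Drosophila melanogaster genes described here make, organise, bind or degrade chitin, or are related by sequence to the enzymes that degrade it. They were taken by symbol from the 17606 genes of the deposited matrix. The symbols begin with Cht and a digit, with Idgf, with Cda and a digit, or with obst-, and mmy, kkv, rtv, knk, Gasp, verm and serp were added.

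Chitin is a polymer of N-acetylglucosamine and the fibrous part of the insect cuticle and of the tracheal lining. The enzyme encoded by mmy makes the activated sugar, UDP-N-acetylglucosamine, which other glycosylation reactions also use, and the chitin synthase encoded by kkv joins it into fibres at the apical membrane. The membrane proteins Knk and Rtv are needed to order the fibres, the secreted deacetylases Serp and Verm modify them, and Gasp and the obstructor proteins bind them. Chitinases (Cht) cut chitin when a cuticle is replaced, whereas the imaginal disc growth factors (Idgf) share the chitinase fold without its activity and are secreted proteins known from the larval fat body and haemolymph. The larval wing is an epithelium that lays down the cuticle of the prepupal and adult wing after puparium formation, and the salivary gland is a secretory epithelium that makes glue proteins and is destroyed in the pupa.

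RNA of wings and salivary glands labelled female was sequenced as total RNA, with 2 libraries in each of 10 groups (20 in all) and at least 60 dissected tissues behind each library. Times are hours from puparium formation: -30 h (larvae of timed age), -6 h (wandering larvae) and +6 h (animals staged from white prepupae). EcRi wings and EcRi glands were taken at -30 and -6 h, and WT wings and WT glands at -30, -6 and +6 h. EcRi animals were yw/yw, carried Vg-GAL4 with UAS-Flp and the flip-out cassette Tub>>CD2>>GAL4, and carried UAS-GFP over the hairpin transgene UAS-EcR-RNAi[104] against the ecdysone receptor gene EcR. WT animals were +/+; +/+; +/+, so they lacked every transgene and the yw background, and the hairpin cannot be told apart from the other differences between the lines. In the EcRi line the vestigial driver switches on a lasting tubulin-promoter GAL4 in the cells where it acts, and the share of gland cells in which it did so was not given in the sources used here. Levels are reads relative to library size (RPM) after a library scaling factor, called scaled RPM. A call required both a limma p under 0.05 after Benjamini-Hochberg adjustment over the 10174 genes tested and a log2 fold change of 1 or more, up or down. Fold changes are of log2(scaled RPM + 1), which understates the change of low genes, and each is given with its standard error.

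Depth was 14949900 to 22626727 reads per library. WT gland -30 h replicate 2 stood apart: 6355 genes had a read in it, against 9412 to 11475 in the other 19, and its median absolute log2 difference from the other replicate was 0.65, against 0.129 to 0.286 in the other 9 groups. EcR itself, whose reads cannot be told apart from those of the hairpin, stood at 127 and 125 scaled RPM in EcRi wings at -6 h and 195 and 161 in WT wings (log2 fold change -0.49 ± 0.14, adjusted p = 0.132). In glands at -6 h it stood at 247 and 192 scaled RPM in EcRi libraries and 1319 and 1267 in WT libraries, and the test called it lower (-2.57 ± 0.14, adjusted p = 1.11e-08). At -30 h EcR was not called in either tissue. In glands it then stood at 302 and 280 scaled RPM in EcRi and 278 and 301 in WT libraries (0.01 ± 0.14, adjusted p = 0.999). In wings it had -0.73 ± 0.14 (adjusted p = 0.0125), under the fold minimum. From -30 to -6 h EcR rose in WT glands (2.16 ± 0.14, adjusted p = 4.08e-08). The dosage compensation RNA lncRNA:roX1, known from males, was at 0 to 8.07 scaled RPM in 15 libraries and at 22.2 to 38.7 in WT wing -30 h replicates 1 and 2, WT wing -6 h replicate 2, WT wing +6 h replicate 1 and WT gland -6 h replicate 2, although all are labelled female. A further RNA of this kind, lncRNA:roX2, was at 25.4 and 25.7 scaled RPM in WT glands at +6 h, where roX1 was at 3.22 and 0.808. In the other groups roX2 was at 0 to 6.09. The summed level of 7 wing marker genes was 1436 to 1985 scaled RPM in wings and 72.8 to 143 in glands, and the glue genes were far higher in WT glands at -6 h than in any other group. Gland signal was also seen in wings. The 10 gland markers, glue genes among them, summed to 12783 and 9276 scaled RPM in WT wings at -6 h. Their sums were 240 and 492 in WT wings at -30 h and 444 and 434 in EcRi wings at -6 h. The part of gland RNA in the wing results was not tested. Markers of fat body in the gland and of WT wing -30 h replicate 2 are given beside the results they move with. The labels do not say that replicates came from separate animals, so p-values measure the spread between these libraries only.

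Of the 34 genes, obst-G and obst-I had no read in any library, and 6 more had too few reads to be tested: Cht4 (38 reads over all 20 libraries), Cht8 (29), Cht12 (12), obst-J (8), Cda9 (7) and obst-F (4). The 26 that passed this filter on low values were both enzymes of precursor and fibre synthesis, 6 of 7 genes of fibre assembly and deacetylation, 5 of 9 obstructor genes (Gasp among them), 7 of 10 chitinases and 6 of 6 imaginal disc growth factors. Counts below describe these 26 and are not support for any statement about the other 8. Some of the genes lie side by side: Idgf1 (2L:16445278-16446793), Idgf2 (2L:16447330-16450508) and Idgf3 (2L:16450907-16455194) follow each other on dm6, as do verm (3L:19690033-19695260) and serp (3L:19700977-19708015), and Cht8, Cht12, Cht4 and Cht9 lie within 2R:21061646-21069286. In all, 16 of the 34 overlap another annotated gene, and the strand setting of the authors' counting was not given in the sources used here, so reads of such pairs cannot be told apart. Idgf6 lies wholly within Pgant9, Idgf1 wholly within CG5888, and 1140 bases of Idgf2 overlap CG5888, each on the other strand. Many of the 26 genes divide by tissue in the plot of all libraries. kkv and most genes of fibre assembly and deacetylation are brighter in wings, and Idgf3, mmy and Cda5 are among those brighter in glands. The genes of binding do not all go one way.

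**Figure D1:**
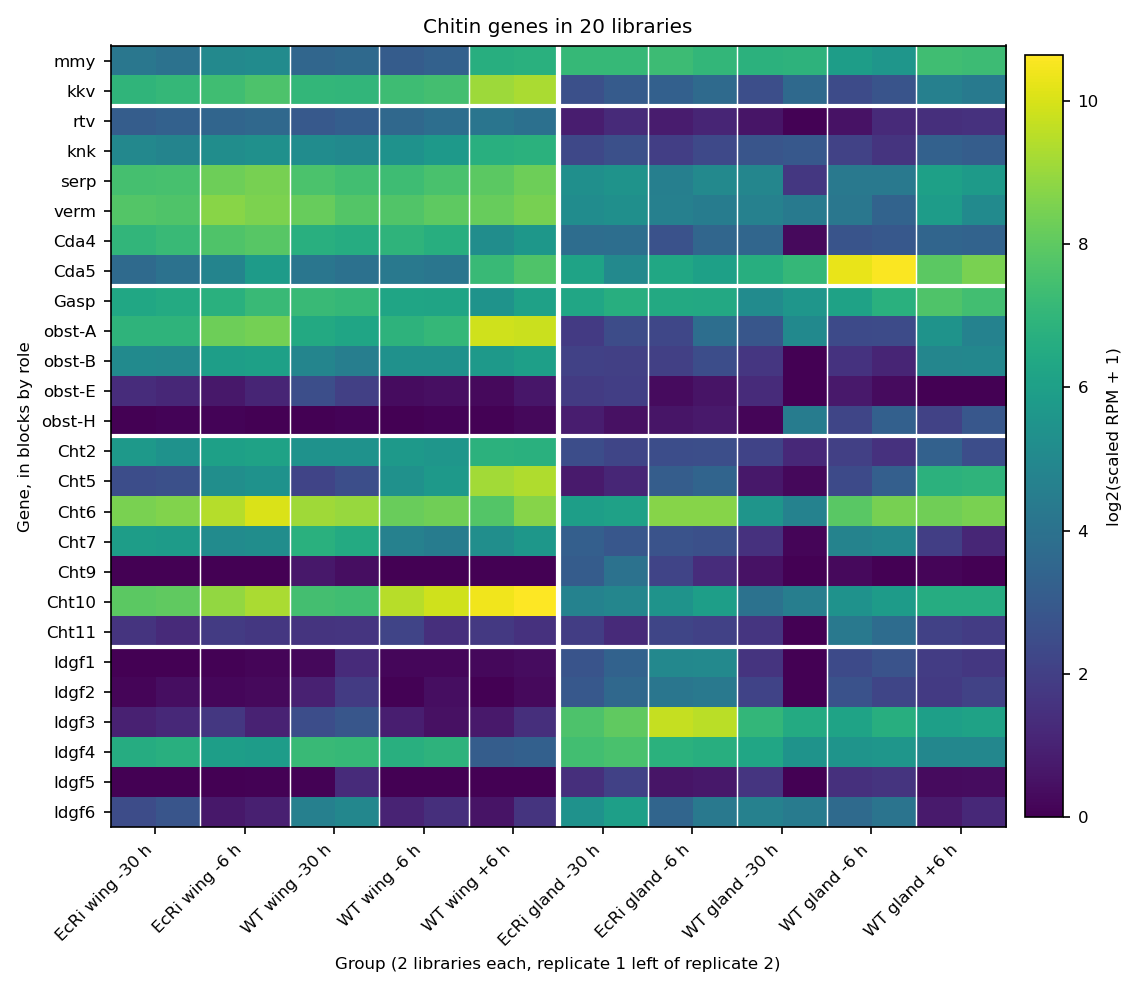
Level of each of the 26 tested genes (rows, in blocks by role) in each of the 20 libraries (columns, replicate 1 left of replicate 2 in each group, wing groups left of gland groups), as colour on a log2(scaled RPM + 1) scale. The kkv, serp and verm rows are bright across wings, where kkv ranges over 123 to 619 scaled RPM, against 4.39 to 23.5 in glands, and Idgf3 is bright in glands, highest in EcRi glands at -6 h.

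In WT wings mmy, kkv and knk, of chitin synthesis and fibre order, rose between -6 and +6 h. The level of mmy was 10.4 and 11.3 scaled RPM at -30 h, 7.59 and 8.83 at -6 h and 100.1 and 107 at +6 h. Its 2 libraries at +6 h lay far above the 4 larval ones, which lay close together. The chitin synthase gene kkv (3R:5378093-5392866) was at 131 and 128 scaled RPM at -30 h, 160.1 and 173 at -6 h and 544 and 619 at +6 h. For knk the values were 34.6 and 31.7 scaled RPM at -30 h, 42.3 and 51.6 at -6 h and 104 and 111 at +6 h. In both genes, too, no larval library reached a prepupal one. Between -6 and +6 h mmy (2L:6468538-6473904) rose by 3.51 ± 0.15 (adjusted p = 1.16e-09), kkv by 1.80 ± 0.29 (adjusted p = 0.000359) and knk by 1.18 ± 0.22 (adjusted p = 0.001) on the log2 scale. Partner of knk in fibre order, rtv was at 6.85 and 7.98 scaled RPM at -30 h, 11.2 and 13.2 at -6 h and 16.3 and 14.2 at +6 h, and was called in no interval.

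The deacetylase genes did not share one course. Cda5, a member of the chitin deacetylase family, was at 16.9 and 14.4 scaled RPM in WT wings at -30 h, 18.6 and 17.2 at -6 h and 148 and 207 at +6 h, and rose by 3.22 ± 0.37 between -6 and +6 h (adjusted p = 1.64e-05). The tracheal and epidermal deacetylase gene serp was at 194 and 169 scaled RPM at -30 h, 159 and 192 at -6 h and 250.5 and 307 at +6 h. Its neighbour verm was at 283 and 221 scaled RPM at -30 h, 214 and 255 at -6 h and 288 and 348 at +6 h. Neither serp nor verm was called in any WT wing interval. For Cda4, another family member, the values were 105 and 95.0 scaled RPM at -30 h, 121 and 101 at -6 h and 36.3 and 48.3 at +6 h, and no interval was called.

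Among genes for chitin-binding proteins, obst-A, which protects newly made chitin in the cuticle, was at 86.0 and 75.2 scaled RPM in WT wings at -30 h, 116 and 136 at -6 h and 918 and 874 at +6 h. Its prepupal libraries stood well above all larval ones, and it rose by 2.83 ± 0.57 between -6 and +6 h (adjusted p = 0.00192). The level of obst-B was 27.3 and 22.5 scaled RPM at -30 h, 41.1 and 41.1 at -6 h and 51.4 and 62.9 at +6 h. Its change between -30 and +6 h (1.17 ± 0.39, adjusted p = 0.0319) was called with all libraries, but without any one of the 4 libraries it was not (1.02 to 1.31). Gasp went the other way over the same span, with 146 and 133 scaled RPM at -30 h, 75.8 and 72.4 at -6 h and 42.5 and 66.7 at +6 h, and fell by 1.37 ± 0.25 (adjusted p = 0.000674).

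The chitinase genes Cht5 and Cht10 were called already in the first interval of WT wings, in which neither synthesis gene was. Cht5, a chitinase known from moulting in other insects, was at 3.56 and 4.89 scaled RPM at -30 h, 40.5 and 51.3 at -6 h and 578 and 650.4 at +6 h. Cht10, a large chitinase also known from moulting, was at 176 and 163 scaled RPM at -30 h, 723 and 944 at -6 h and 1336 and 1587 at +6 h. Each time lay apart from the others in both genes. Cht5 rose by 3.17 ± 0.28 between -30 and -6 h (adjusted p = 7.46e-06) and by a further 3.72 ± 0.28 between -6 and +6 h (adjusted p = 2.62e-07). Cht10 rose by 2.28 ± 0.22 in the first interval (adjusted p = 1.84e-05), and its difference in the second was not called. Cht7, by contrast, was at 105 and 90.1 scaled RPM at -30 h, 24.5 and 20.9 at -6 h and 36.7 and 47.8 at +6 h, and fell by 2.06 ± 0.37 in the first interval (adjusted p = 0.00249). Cht2, which acts in cuticle formation, was at 42.3 and 41.3 scaled RPM at -30 h, 50.9 and 46.5 at -6 h and 114 and 107 at +6 h, and its rise by 1.17 ± 0.31 in the second interval (adjusted p = 0.0127) was lost without any one of the 4 libraries (1.10 to 1.23). Cht6 was at 561 and 515 scaled RPM at -30 h, 293 and 323 at -6 h and 219 and 421 at +6 h, with replicates at +6 h far apart, and no interval was called.

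The imaginal disc growth factor genes rose in no WT wing interval. Idgf4, the family member with the highest level per exonic kilobase in WT wings at -30 and -6 h, was at 147 and 139 scaled RPM at -30 h, 105 and 115 at -6 h and 7.79 and 8.47 at +6 h. It fell by 3.60 ± 0.20 between -6 and +6 h (adjusted p = 1.34e-08), and both prepupal libraries lay below all larval ones. Idgf6 was at 24.1 and 29.0 scaled RPM at -30 h, 1.09 and 1.67 at -6 h and 0.471 and 2.0 at +6 h, and fell by 3.54 ± 0.38 in the first interval (adjusted p = 4.51e-05). Pgant9, which encloses it, was at 24.8 and 37.7 scaled RPM in WT wings at -30 h, 57.3 and 80.0 at -6 h and 454 and 410 at +6 h. Idgf3 was at 4.72 and 6.29 scaled RPM at -30 h and at or below 1.69 at the later times, and fell by 2.02 ± 0.31 in the first interval (adjusted p = 0.000919). The 8 fat body markers summed to 200.3 and 2588 scaled RPM in the 2 WT wing libraries at -30 h and to 25.8 to 61.5 in the other WT wing libraries. Idgf3 and Idgf6 still fell in the first interval without replicate 2 at -30 h. The marker sum of replicate 1 at -30 h also lay above those at -6 h (45.7 and 32.2). The part of fat body RNA in these falls was not tested.

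Counted together, 2 of the 26 genes rose and 4 fell in WT wings between -30 and -6 h, which is 23.1%, against 5.3% of all genes tested (3.07% higher and 2.23% lower). Between -6 and +6 h 7 rose and 1 fell, 30.8% of the 26, against 16.7% of all genes (10.6% higher and 6.06% lower). Over the whole span 9 rose and 6 fell, 57.7%, against 24.6% (14.6% higher and 10% lower). Over that span Cht5 rose by 6.89 ± 0.28, obst-A by 3.46 ± 0.57, Cda5 by 3.41 ± 0.37, mmy by 3.15 ± 0.15, Cht10 by 3.10 ± 0.22, kkv by 2.16 ± 0.29, knk by 1.67 ± 0.22 and Cht2 by 1.38 ± 0.31. Idgf4 fell by 3.98 ± 0.20, Idgf6 by 3.71 ± 0.38 and Idgf3 by 1.61 ± 0.31. The median log2 change of the 26 was -0.075, 0.351 and 0.049 over these 3 comparisons, against 0, 0 and 0.002 for all genes tested. In WT wings 6 of 6, 7 of 8 and 13 of 15 calls were kept whichever library was left out, Cht2, Cht7 and obst-B being those lost. Cht7 over the whole span (-1.20 ± 0.37, adjusted p = 0.0196) was lost without WT wing +6 h replicate 1 (-1.01), WT wing -30 h replicate 1 (-1.09) or WT wing -30 h replicate 2 (-1.31).

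**Figure D2:**
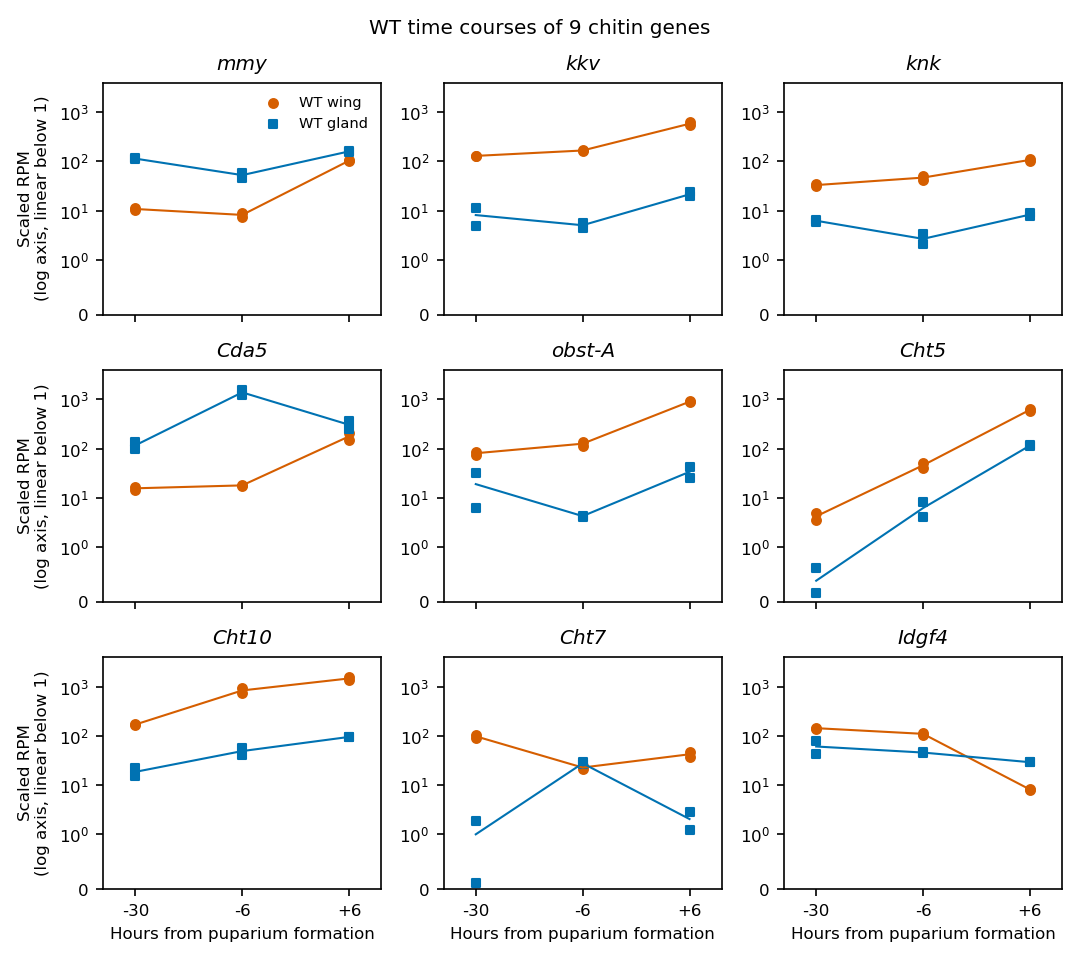
Scaled RPM (log axis, linear below 1) of 9 genes at -30, -6 and +6 hours from puparium formation in WT wings (orange circles) and WT glands (blue squares). Each point is a library and lines join the means of 2. In wings mmy, kkv, knk, Cda5 and obst-A are highest at +6 h, Cht5 and Cht10 are higher at each later time and Idgf4 is lowest at +6 h, while in glands Cda5 and Cht7 peak at -6 h.

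In WT salivary glands Cda5, Cht7 and Cht11 were highest at -6 h. Cda5 was at 99.9 and 134 scaled RPM at -30 h, 1251 and 1519 at -6 h and 250.2 and 359 at +6 h. Its 2 libraries at -6 h lay above those of every other group in the series. It rose by 3.57 ± 0.37 between -30 and -6 h (adjusted p = 2.77e-06) and fell by 2.20 ± 0.37 between -6 and +6 h (adjusted p = 0.000244). Cht7 was at 1.9 and 0.105 scaled RPM at -30 h, 26.3 and 29.0 at -6 h and 2.87 and 1.21 at +6 h, rising by 4.0 ± 0.37 (adjusted p = 8.17e-07) and falling by 3.29 ± 0.37 (adjusted p = 5.54e-06). Cht11 showed the same order, with 2.09 and 0 scaled RPM at -30 h, 18.4 and 12.6 at -6 h and 3.10 and 2.69 at +6 h. It rose by 3.21 ± 0.44 in the first interval (adjusted p = 3.51e-05) and fell by 2.06 ± 0.44 in the second (adjusted p = 0.0016). In these 3 genes no library at -6 h overlapped with one at either other time.

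Other chitinases rose in WT glands without a later fall. Cht5 was at 0.617 and 0.158 scaled RPM at -30 h, 4.17 and 8.28 at -6 h and 112 and 118 at +6 h, and rose by 2.34 ± 0.28 (adjusted p = 1.09e-05) and then by 4.07 ± 0.28 (adjusted p = 5.1e-08). Cht6 was at 46.1 and 25.2 scaled RPM at -30 h, 240.0 and 346 at -6 h and 319 and 359 at +6 h, and rose by 3.04 ± 0.31 in the first interval (adjusted p = 2.02e-06). Cht10 was at 15 and 22.1 scaled RPM at -30 h, 41.2 and 56.8 at -6 h and 94.4 and 95.6 at +6 h, and rose by 1.36 ± 0.22 in the first interval (adjusted p = 0.000179). All 3 genes were lowest in both libraries at -30 h. Cht2 rose by 1.15 ± 0.31 between -6 and +6 h (adjusted p = 0.00809), with 3.42 and 1.37 scaled RPM at -30 h, 3.07 and 1.84 at -6 h and 8.97 and 4.71 at +6 h. That call was lost without WT gland +6 h replicate 1 (0.94), and without replicate 2 at +6 h the rise was 1.82.

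Several genes of synthesis, order and binding rose in WT glands between -6 and +6 h. For mmy the levels were 113 and 115 scaled RPM at -30 h, 58.8 and 46.7 at -6 h and 166 and 154 at +6 h. The -6 h libraries were thus the lowest, and mmy rose by 1.59 ± 0.15 between -6 and +6 h (adjusted p = 9.78e-07). Its earlier fall by 1.11 ± 0.15 (adjusted p = 3e-05) was lost without WT gland -30 h replicate 1 (-0.94) or WT gland -6 h replicate 2 (-0.79), and with median-of-ratios scaling (-0.87). kkv was at 4.79 and 11.5 scaled RPM at -30 h, 4.39 and 5.75 at -6 h and 23.5 and 19.5 at +6 h, and rose by 1.89 ± 0.29 in the second interval (adjusted p = 0.000114). knk, with 5.93 and 6.57 scaled RPM at -30 h, 3.29 and 2.07 at -6 h and 8.85 and 7.81 at +6 h, rose by 1.36 ± 0.22 (adjusted p = 0.000161). The prepupal libraries were the highest in both. Gasp, at 34.1 and 47.1 scaled RPM at -30 h, 68.2 and 105 at -6 h and 209 and 171 at +6 h, was called in both intervals. Its second rise was by 1.15 ± 0.25 (adjusted p = 0.00212), and its first (1.06 ± 0.25, adjusted p = 0.00343) was lost without WT gland -6 h replicate 2 (0.91).

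Among the other binding and deacetylase genes of WT glands, obst-B was at 2.18 and 0 scaled RPM at -30 h, 1.97 and 1.15 at -6 h and 28.9 and 29.1 at +6 h, and rose by 3.57 ± 0.39 between -6 and +6 h (adjusted p = 4.84e-06). obst-A was at 6.21 and 31.8 scaled RPM at -30 h, 4.17 and 4.37 at -6 h and 42.8 and 24.9 at +6 h. Its 2 libraries at -30 h lay far apart, and the rise by 2.68 ± 0.57 between -6 and +6 h (adjusted p = 0.00158) does not use them. The fall of obst-A in the first interval (-1.55 ± 0.57, adjusted p = 0.0389) was lost without WT gland -30 h replicate 2 (-0.45) or either library at -6 h (-1.43 without replicate 1 and -1.45 without replicate 2), and was -2.47 without WT gland -30 h replicate 1. verm was at 24.3 and 19.4 scaled RPM at -30 h, 17.3 and 9.43 at -6 h and 57.1 and 33.1 at +6 h, and rose by 1.69 ± 0.27 in the second interval (adjusted p = 0.000159). serp was at 28.7 and 2.31 scaled RPM at -30 h, 18.6 and 18.6 at -6 h and 65.3 and 54.9 at +6 h. Over the whole span serp rose by 2.62 ± 0.63 (adjusted p = 0.00268), by 1.04 without WT gland -30 h replicate 2 and by 4.57 without replicate 1.

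The imaginal disc growth factor genes of WT glands were led by Idgf3, with 129.7 and 88.4 scaled RPM at -30 h, 70.6 and 99.3 at -6 h and 62.2 and 69.8 at +6 h, and by Idgf4, with 77.9 and 43.5 at -30 h, 44.1 and 47.4 at -6 h and 29.3 and 29.0 at +6 h. No interval was called for either. Idgf6 was at 24.4 and 20.3 scaled RPM at -30 h, 11.8 and 16.1 at -6 h and 0.690 and 1.35 at +6 h, and fell by 2.90 ± 0.38 in the second interval (adjusted p = 2.85e-05). Its overlapping gene Pgant9 was at 230.4 and 677 scaled RPM at -30 h, 1877 and 1731 at -6 h and 124 and 121 at +6 h. Idgf1 was at 1.99 and 0 scaled RPM at -30 h, 4.17 and 5.52 at -6 h and 2.76 and 2.29 at +6 h, with a first rise by 1.75 ± 0.43 (adjusted p = 0.00428) that was lost without WT gland -30 h replicate 2 (0.95). The 8 fat body markers summed to 7584 and 4021 scaled RPM in WT glands at -30 h, 8135 and 7412 at -6 h and 2746 and 2456 at +6 h, and their part in these levels was not tested. The 5 tracheal markers found summed to 479 and 416 scaled RPM at -30 h, 63.8 and 70.1 at -6 h and 110 and 97.4 at +6 h, lowest at -6 h as mmy, knk and verm were. Most of each sum was pio, btl was at or below 1.57 scaled RPM, and the part of tracheal cells was not tested.

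In WT glands 9 of the 26 genes rose and 2 fell between -30 and -6 h (42.3%, against 34.8% of all genes tested, 18.1% higher and 16.7% lower). Between -6 and +6 h 9 rose and 5 fell (53.8%, against 30%, 13.7% higher and 16.3% lower), and over the whole span 11 rose and 1 fell (46.2%, against 45.6%, 23.6% higher and 22% lower). The shares of the first interval and of the whole span lie near those of all genes, so they say little of these genes in particular. The median log2 change of the 26 was 0.526, 0.409 and 1.077, against 0.059, -0.079 and 0.079 for all genes. With median-of-ratios scaling those of all genes were 0.176, 0.052 and 0.342, and those of the 26 were not computed. With that scaling the 9 rises of the first interval were kept and both falls, of mmy (-0.87) and obst-A (-1.34), lost their calls. With voom Cht2, Cht11, Idgf5, knk, obst-A and verm were not called between -6 and +6 h. Over the whole span Cht5 rose by 6.41 ± 0.28, obst-B by 4.07 ± 0.39, Cht6 by 3.27 ± 0.31, Cht10 by 2.32 ± 0.22, Gasp by 2.21 ± 0.25, kkv by 1.40 ± 0.29 and Cda5 by 1.37 ± 0.37, and Idgf6 fell by 3.55 ± 0.38. With only the groups compared in the fit, 4 of the 11 calls of the first interval were kept (Cht5, Cht10, Cht11, Gasp, Idgf1, Idgf2 and obst-A were lost) and 7 of the 12 over the whole span (Cht2, Cht11, kkv, rtv and serp were lost). Leaving out each library in turn kept 6 of 11, 12 of 14 and 9 of 12 calls. Besides those given above, the first interval lost Idgf2 (1.40 ± 0.52, adjusted p = 0.0403), which stood at 0.33 without WT gland -30 h replicate 2, 2.48 without replicate 1 at -30 h, 1.24 without WT gland -6 h replicate 1 and 1.76 without WT gland -6 h replicate 2. Over the whole span Cht2 (1.22 ± 0.31) stood at 0.77 without WT gland -30 h replicate 2, 2.0 without WT gland -30 h replicate 1 and 1.98 without WT gland +6 h replicate 2. Over the same span Cht11 had 0.33 without WT gland -30 h replicate 2, 2.16 without WT gland -30 h replicate 1 and 1.31 without WT gland +6 h replicate 1, and rtv (1.15 ± 0.30) had 0.88 without WT gland -30 h replicate 2. Idgf5, under 5 scaled RPM throughout, lost its call of -1.22 ± 0.43 in the second interval without any one of the 4 libraries (-1.29 to -1.17).

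Whether the 2 tissues differed in their course was tested as the wing change minus the gland change. Between -30 and -6 h 1 of the 26 genes had a higher value and 10 a lower one (42.3%, against 28.6% of all genes, 15% higher and 13.6% lower). Cht7, which fell in WT wings and rose in WT glands, differed by -6.06 ± 0.52 (adjusted p = 1.62e-06), Cht6 by -3.84 ± 0.43 (adjusted p = 1.67e-05) and Cda5 by -3.38 ± 0.52 (adjusted p = 0.000242). The 1 higher value was that of knk (1.48 ± 0.31, adjusted p = 0.00215). Between -6 and +6 h 5 values were higher and 4 lower (34.6%, against 27%, 16.8% higher and 10.2% lower), led by Cda5 (5.41 ± 0.52, adjusted p = 2.8e-06), Cht7 (4.15 ± 0.52, adjusted p = 2.88e-05) and Idgf6 (2.73 ± 0.54, adjusted p = 0.0014) on the higher side, with mmy at 1.92 ± 0.21 (adjusted p = 8.76e-06). With voom Idgf6 was not called. On the lower side stood obst-B (-3.11 ± 0.55, adjusted p = 0.000608) and Idgf4 (-2.97 ± 0.28, adjusted p = 2.6e-06). For kkv the rise after -6 h in wings was 1.80 and that in glands 1.89, and for Cht5 3.72 and 4.07, and neither difference was called. The share called between -6 and +6 h lies near that of all genes, so it says little of these genes in particular.

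Set against each other at one time, WT wings held more of the chitin synthase transcript kkv than WT glands. They also held more of the transcripts for fibre order and deacetylation, apart from Cda5. The precursor gene mmy was not higher in wings. At -6 h kkv was at 160.1 and 173 scaled RPM in wings, against 4.39 and 5.75 in glands, and its log2 fold change was 3.94 ± 0.29 at -30 h, 4.8 ± 0.29 at -6 h and 4.70 ± 0.29 at +6 h (adjusted p = 1.46e-07, 9.53e-09 and 9.32e-09). Every wing library lay above every gland library. verm was higher in wings at all 3 times (3.47, 4.09 and 2.83, each ± 0.27), as were knk (2.23, 3.72 and 3.54, each ± 0.22), Cht2 (3.73, 3.87 and 3.88, each ± 0.31) and Cht10 (3.15, 4.07 and 3.92, each ± 0.22). obst-A was higher by 2.40, 4.59 and 4.74 (each ± 0.57), and its value at -30 h was 1.46 without WT gland -30 h replicate 1. rtv was higher in wings by 2.73, 2.83 and 2.53 (each ± 0.30). obst-B was higher by 3.85 at -30 h and 4.06 at -6 h (each ± 0.39), Cht7 by 5.78 at -30 h and 3.87 at +6 h (each ± 0.37), Cht6 by 3.94 ± 0.31 at -30 h, and Cht5 by 2.75 at -6 h and 2.40 at +6 h (each ± 0.28). At -6 h Cda4 was higher by 3.96 ± 0.67 and serp by 3.16 ± 0.63. Fewer cells of a type and less RNA per cell cannot be told apart in such bulk samples.

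A few genes were lower in WT wings than in WT glands. mmy was at 7.59 and 8.83 scaled RPM in wings at -6 h, against 58.8 and 46.7 in glands, with log2 fold changes of -3.28 ± 0.15 at -30 h and -2.54 ± 0.15 at -6 h (adjusted p = 3.25e-09 and 6.68e-09). At +6 h its difference was -0.62 ± 0.15 (adjusted p = 0.0024), under the fold minimum. Cda5 was lower in wings by 2.81 ± 0.37 at -30 h and 6.19 ± 0.37 at -6 h (adjusted p = 2.97e-05 and 8.3e-09), and at +6 h, with 148 and 207 scaled RPM in wings and 250.2 and 359 in glands, it had -0.77 ± 0.37 (adjusted p = 0.0881). Idgf3 was lower in wings at each time (-4.07, -5.73 and -4.99, each ± 0.31). Idgf4 changed sides, with 1.28 ± 0.20 at -30 h, 1.24 ± 0.20 at -6 h and -1.72 ± 0.20 at +6 h, of which the first was lost without WT gland -30 h replicate 2 (0.87). Gasp also changed sides, with 1.77 ± 0.25 at -30 h and -1.81 ± 0.25 at +6 h, when it was at 42.5 and 66.7 scaled RPM in wings, against 209 and 171 in glands. Cht11 (-2.23 ± 0.44) and Idgf6 (-2.65 ± 0.38) were lower in wings at -6 h. Library scaling factors at -6 h were 1.7888 and 1.7398 in WT wings and 0.2519 and 0.1977 in WT glands. Levels and tissue differences at that time therefore rest on this scaling.

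In these tissue comparisons 16 of the 26 genes were higher in wings and 3 lower at -30 h (73.1%, against 30.9% of all genes, 18.8% higher and 12.1% lower), 12 higher and 9 lower at -6 h (80.8%, against 44.5%, 25.3% higher and 19.2% lower), and 11 higher and 6 lower at +6 h (65.4%, against 47.4%, 30.8% higher and 16.5% lower). The median log2 fold change of the 26 was 1.846, -0.008 and 0.268, against 0.138, 0.091 and 0.297 for all genes. With median-of-ratios scaling that of all genes at +6 h was 0.045, and that of the 26 was not computed. Of the calls, 17 of 19, 20 of 21 and 14 of 17 were kept without each library in turn. With only the groups compared in the fit, Cda4, Cht5, Idgf4, obst-A, obst-E, rtv and serp were not called at -30 h. At -30 h Cda4 (4.75 ± 0.67) moved to 3.13 and serp (4.20 ± 0.63) to 2.62 without WT gland -30 h replicate 2, and obst-E, under 5 scaled RPM, lost its call of 1.64 (0.99). At +6 h Cda4 (1.99 ± 0.67, adjusted p = 0.0196) was lost without WT gland replicate 1 (1.76) or 2 (1.64) or WT wing replicate 2 (1.79), and serp (2.19 ± 0.63, adjusted p = 0.00828) without WT gland replicate 1 (2.03) or 2 (1.72). obst-H, lower in wings by 2.7 ± 0.89 at -6 h and 2.38 ± 0.89 at +6 h, was lost at -6 h without WT gland replicate 2 (-2.34) or WT wing replicate 1 (-2.63) or 2 (-2.71), and at +6 h without WT gland replicate 2 (-2.29) or WT wing replicate 1 (-2.29) or 2 (-2.44).

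**Figure D3:**
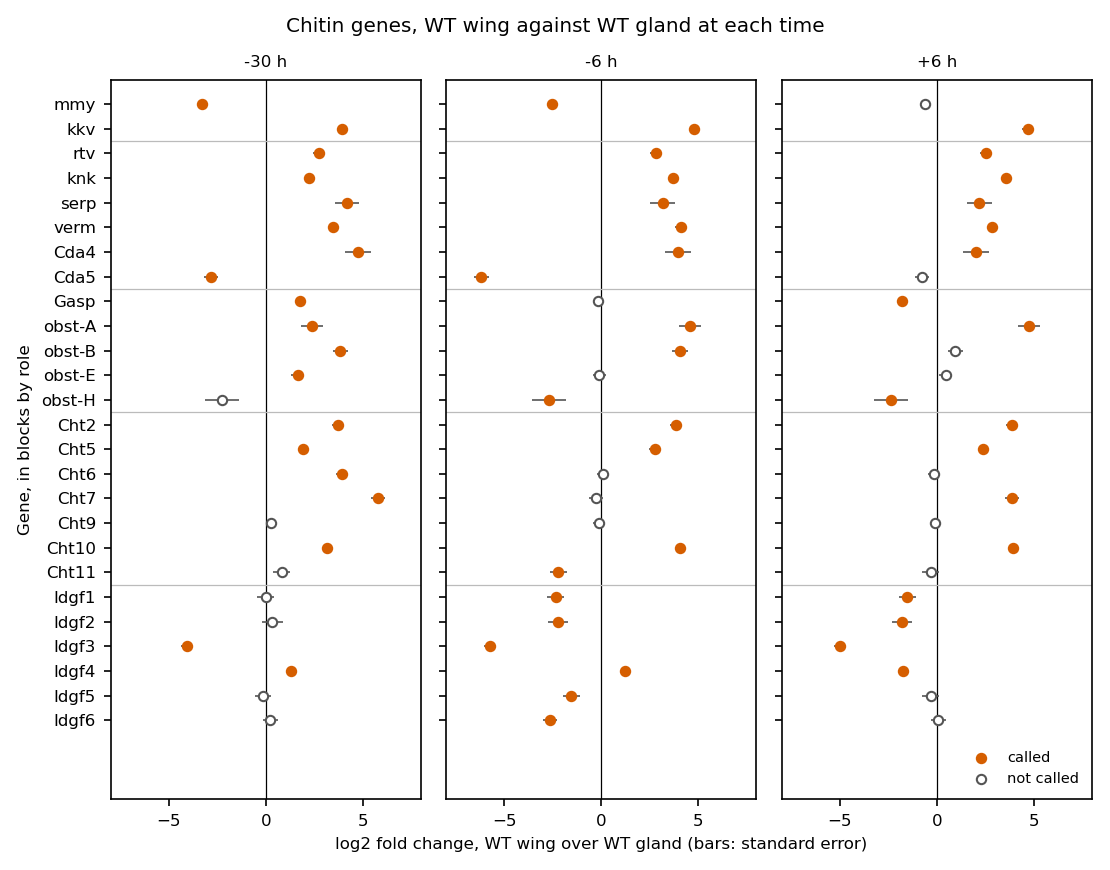
Log2 fold change of WT wing over WT gland (x axis, bars are the standard error) for the 26 tested genes (y axis, in blocks by role) at -30, -6 and +6 h. Filled points were called and open ones were not. kkv, knk, verm, Cht2 and Cht10 lie right of 0 at each time and Idgf3 left of 0, while mmy and Cda5 lie far left at -6 h and nearer 0 at +6 h.

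EcRi wings differed from WT wings in few of these genes. At -6 h mmy was at 31.4 and 33.7 scaled RPM in EcRi wings, against 7.59 and 8.83 in WT wings, and at -30 h at 17.4 and 15.1 against 10.4 and 11.3. Both EcRi libraries lay above both WT libraries at each time, but at -30 h mmy was not called. At -6 h mmy was called higher (1.87 ± 0.15, adjusted p = 7.62e-06), and it kept that call whichever library was left out. Cht6 was at 702 and 1058 scaled RPM in EcRi wings at -6 h, against 293 and 323 in WT wings (1.48 ± 0.31, adjusted p = 0.0185), and lost its call without EcRi replicate 2 (1.19) or WT replicate 1 (1.41) or 2 (1.55). At -30 h Idgf6 was lower (-2.13 ± 0.38, adjusted p = 0.00703), at 4.58 and 6.02 scaled RPM in EcRi wings, against 24.1 and 29.0 in WT wings. Idgf3 was also lower at -30 h (-1.59 ± 0.31, adjusted p = 0.0122), at 0.942 and 1.36 scaled RPM in EcRi wings, against 4.72 and 6.29 in WT wings.

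Both calls at -30 h were lost without single libraries. Idgf3 was not called without EcRi wing -30 h replicate 1 (-1.44), replicate 2 (-1.72) or WT wing -30 h replicate 2 (-1.40), and Idgf6 was not without EcRi wing -30 h replicate 1 (-1.96) or WT wing -30 h replicate 2 (-2.0). The 8 fat body markers summed to 123 and 53.5 scaled RPM in EcRi wings at -30 h, against 200.3 and 2588 in WT wings, and their part in the difference was not tested. Among the genes not called at -6 h, obst-A was at 308 and 337 scaled RPM in EcRi wings, against 116 and 136 in WT wings (1.36 ± 0.57, adjusted p = 0.495). Cda5 was at 26.9 and 55.5 against 18.6 and 17.2 (1.07 ± 0.37, adjusted p = 0.269), and Cda4 at 209 and 236 against 121 and 101 (1.00 ± 0.67). Cht10, in turn, was at 474 and 614 scaled RPM in EcRi wings, against 723 and 944 in WT wings, and was not called. None of the 26 was higher and 2 were lower at -30 h (7.69%, against 2.19% of all genes, 0.855% higher and 1.34% lower), and 2 were higher and none lower at -6 h (7.69%, against 1.78%, 1.23% higher and 0.55% lower). The median log2 fold change was -0.215 at -30 h and 0.295 at -6 h, against -0.022 and 0 for all genes.

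Over time, EcRi wings showed the rise of Cht5, at 37.6 and 41.7 scaled RPM at -6 h, against 4.68 and 4.97 at -30 h (2.80 ± 0.28, adjusted p = 4.73e-05), close to the 40.5 and 51.3 at -6 h and 3.56 and 4.89 at -30 h of WT wings. In all 4 genes rose and 1 fell between -30 and -6 h in EcRi wings (19.2%, against 3.1% of all genes, 2.56% higher and 0.541% lower), and the median log2 change was 0.445, against 0.024 for all genes. Of these calls that of Cht5 was the 1 kept without each library. Cht10 (1.10 ± 0.22) was lost without EcRi wing -30 h replicate 1 (1.06), replicate 2 (1.14) or EcRi wing -6 h replicate 2 (0.92), and Cda5 (1.47 ± 0.37) without EcRi wing -30 h replicate 1 (1.29), replicate 2 (1.63) or EcRi wing -6 h replicate 2 (0.96). Cht6 (1.19 ± 0.31; 0.90 to 1.49) and Idgf6 (-1.83 ± 0.38; -1.97 to -1.64) were lost without any one of the 4. The EcRi change minus the WT change was called higher for 2 genes and lower for none (7.69%, against 0.835% of all genes, 0.688% higher and 0.147% lower). These were mmy (1.32 ± 0.21, adjusted p = 0.00876), lost without EcRi wing -30 h replicate 2 (1.22) or WT wing -6 h replicate 1 (1.22), and Idgf3 (2.29 ± 0.44, adjusted p = 0.0269), lost without 6 of the 8 libraries (1.91 to 2.47).

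EcRi salivary glands at -6 h held far less Cda5 and Cht7 and more of 4 imaginal disc growth factor transcripts than WT glands. Cda5 was at 79.9 and 65.6 scaled RPM in EcRi glands, against 1251 and 1519 in WT glands, a fall by 4.23 ± 0.37 (adjusted p = 7.91e-07). The EcRi libraries lay below WT glands of any time, where the lowest was 99.9. Cht7 was at 5.66 and 5.11 scaled RPM in EcRi glands, against 26.3 and 29.0 in WT glands (-2.17 ± 0.37, adjusted p = 0.000308), and Cht11 at 3.68 and 3.19 against 18.4 and 12.6 (-1.88 ± 0.44, adjusted p = 0.00359). These 3 genes were the ones that rose before and fell after puparium formation in WT glands. Cht5 and Cht10 overlapped between EcRi and WT glands, and neither they nor Cht6 were called. Cht5 had 7.81 and 9.63 scaled RPM in EcRi glands, against 4.17 and 8.28 in WT glands, Cht6 had 411 and 420.4 against 240.0 and 346, and Cht10 had 43.0 and 61.5 against 41.2 and 56.8.

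Idgf3 was at 831 and 746 scaled RPM in EcRi glands at -6 h, against 70.6 and 99.3 in WT glands, and was higher by 3.22 ± 0.31 (adjusted p = 2.22e-06). Its neighbour Idgf1 was at 30.3 and 31.3 scaled RPM in EcRi glands, against 4.17 and 5.52 in WT glands (2.45 ± 0.43, adjusted p = 0.000433). Idgf2, between them on the chromosome, was at 17.1 and 18.4 scaled RPM in EcRi glands, against 5.48 and 3.68 in WT glands (1.77 ± 0.52, adjusted p = 0.0148). In each of the 3 adjacent genes both EcRi libraries lay above all WT gland libraries of any time. CG5888, which overlaps Idgf1 and Idgf2 on the other strand, was at 15.9 and 12.0 scaled RPM in EcRi glands, against 1.10 and 0.460 in WT glands. Idgf4, on the X chromosome, was at 108 and 99.7 scaled RPM in EcRi glands, against 44.1 and 47.4 in WT glands (1.17 ± 0.20, adjusted p = 0.000356), and stood at 0.94, under the fold minimum, with median-of-ratios scaling. Idgf6 overlapped, with 9.95 and 18.7 scaled RPM in EcRi glands, against 11.8 and 16.1 in WT glands.

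The fat body markers did not separate the groups at -6 h: they summed to 5758 and 9550 scaled RPM in EcRi glands, against 8135 and 7412 in WT glands. The 5 tracheal markers found summed to 724 and 710 scaled RPM in EcRi glands, against 63.8 and 70.1 in WT glands, most of it from pio (686 and 665 against 39.5 and 48.3), while btl was at 1.19 and 1.62 against 1.54 and 0.230. The 8 blood cell markers summed to 69.9 and 84.4 scaled RPM in EcRi glands, against 86.2 and 87.1 in WT glands. The 7 muscle and myoblast markers summed to 99.5 and 98.6 scaled RPM in EcRi glands, against 297 and 238 in WT glands. The part of other cell types in these differences was not tested.

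The precursor gene mmy was at 154 and 130.0 scaled RPM in EcRi glands at -6 h, against 58.8 and 46.7 in WT glands (1.42 ± 0.15, adjusted p = 4.38e-06), and so did not show the low level of WT glands at that time. Cht9, a chitinase gene of the cluster on 2R, was at 3.56 and 1.56 scaled RPM in EcRi glands and 0.219 and 0 in WT glands (1.63 ± 0.29, adjusted p = 0.00053), and with a pseudocount of 4 its value was 0.66 and the call was lost. In all 6 genes were higher and 3 lower in EcRi glands at -6 h (34.6%, against 27% of all genes, 17.2% higher and 9.77% lower), with 4 of the 6 imaginal disc growth factor genes among the higher. The share of the 26 lies near that of all genes, so it says little of these genes in particular. The median log2 fold change of the 26 was 0.486, against 0.155 for all genes. With median-of-ratios scaling that of all genes was 0.036, and that of the 26 was not computed. Idgf2 lost its call without EcRi gland -6 h replicate 1 (1.82), replicate 2 (1.71) or WT gland -6 h replicate 2 (1.45), and the other 8 kept theirs without each library in turn. With voom Cht11, Idgf1 and Idgf2 were not called.

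**Figure D4:**
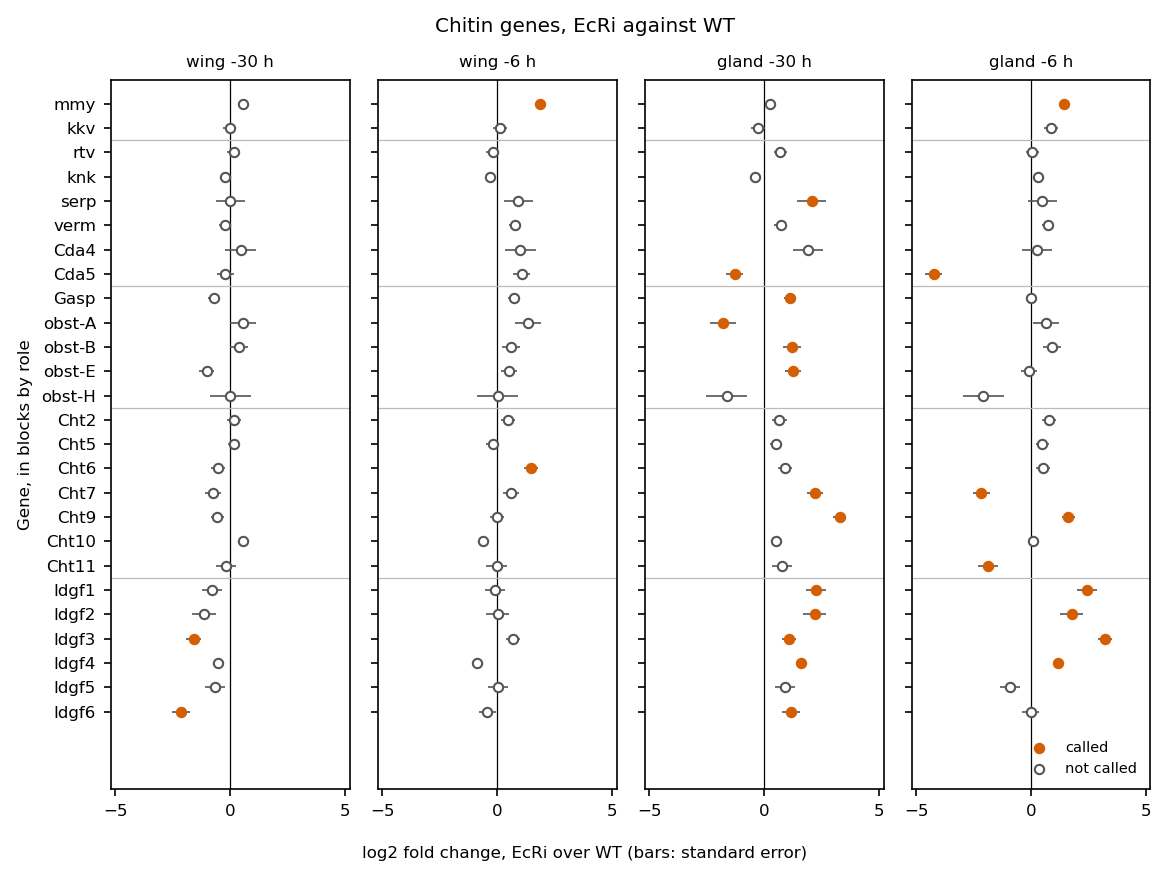
Log2 fold change of EcRi over WT (x axis, bars are the standard error) for the 26 tested genes (y axis, in blocks by role) in wings and glands at -30 and -6 h. Filled points were called and open ones were not. Few points are filled in wings, where mmy at -6 h stands at 1.87, and in glands at -6 h Cda5 lies farthest left at -4.23 and Idgf3 farthest right at 3.22.

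At -30 h the EcRi glands already differed in imaginal disc growth factor genes, in comparisons that include WT gland -30 h replicate 2, the library that stood apart. Idgf4 was at 169.9 and 193 scaled RPM in EcRi glands, against 77.9 and 43.5 in WT glands (1.62 ± 0.20, adjusted p = 0.000108). Idgf1 was at 5.82 and 9.01 scaled RPM in EcRi glands, against 1.99 and 0 in WT glands (2.26 ± 0.43, adjusted p = 0.0028; 1.46 without WT gland -30 h replicate 2). Cht7 was at 8.30 and 6.47 scaled RPM in EcRi glands, against 1.9 and 0.105 in WT glands (2.22 ± 0.37, adjusted p = 0.000998), the opposite direction to that at -6 h. Cht9 was at 7.57 and 15 scaled RPM in EcRi glands, against 0.427 and 0 in WT glands (3.29 ± 0.29, adjusted p = 5.86e-06), and it was at or below 0.609 in every WT library of either tissue. In EcRi wings Cht9 had no read, and 3 reads, the limit that a count of 0 allows, are 0.141 to 0.196 RPM in those libraries. These 4 genes kept their calls without each library in turn.

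The other 9 calls at -30 h in glands were each lost without at least 1 library. Without WT gland -30 h replicate 2, 6 genes were called, and without EcRi gland -30 h replicate 2, 4 genes, all higher in EcRi glands. With only the 4 libraries compared in the limma fit 0 were called, and 7 had an unadjusted p under 0.05. Idgf3 was at 202 and 263 scaled RPM in EcRi glands, against 129.7 and 88.4 in WT glands (1.10 ± 0.31, adjusted p = 0.0261), and had 0.82 without that library and 0.88 without EcRi gland -30 h replicate 2. Idgf2, at 6.70 and 11 scaled RPM in EcRi glands against 3.37 and 0 in WT glands (2.20 ± 0.52, adjusted p = 0.0097), had 1.14 without WT replicate 2, still called, and 1.81, not called, without EcRi replicate 2. Idgf6, at 41.9 and 62.4 scaled RPM in EcRi glands against 24.4 and 20.3 in WT glands (1.17 ± 0.38, adjusted p = 0.0462), was lost without EcRi replicate 1 (1.44) or 2 (0.86) or WT replicate 2 (1.04). In all 3 genes both EcRi libraries lay above both WT libraries. The calls came from these same libraries, so this order adds no support to them.

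Cda5 was at 70.9 and 30.8 scaled RPM in EcRi glands at -30 h, against 99.9 and 134 in WT glands (-1.28 ± 0.37, adjusted p = 0.0269), and was lost without EcRi replicate 2 (-0.72) or WT replicate 2 (-1.08). Gasp was at 78.4 and 101 scaled RPM in EcRi glands, against 34.1 and 47.1 in WT glands (1.13 ± 0.25, adjusted p = 0.00755), and was lost without EcRi replicate 2 (0.93) or WT replicate 1 (0.93). For serp (2.07 ± 0.63), at 38.2 and 43.4 scaled RPM in EcRi glands against 28.7 and 2.31 in WT glands, the value was 0.49 without WT replicate 2, 3.64 without WT replicate 1, 2.13 without EcRi replicate 1 and 1.94 without EcRi replicate 2, and it was called in the second of these alone. obst-A (-1.80 ± 0.57) had 2.47 and 4.59 scaled RPM in EcRi glands, against 6.21 and 31.8 in WT glands. It was lost without WT replicate 2 (-0.71), EcRi replicate 1 (-1.46) or EcRi replicate 2 (-2.15), and had -2.84 without WT replicate 1. The genes obst-B (1.21 ± 0.39) and obst-E (1.27 ± 0.34), under 5 scaled RPM in both groups, had 0.37 and 0.61 without WT replicate 2, 1.12 and 1.27 without EcRi replicate 1, and 1.17 and 1.14 without EcRi replicate 2, all not called. obst-B had 1.95 without WT replicate 1.

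In EcRi glands at -30 h 11 of the 26 genes were higher and 2 lower (50%, against 13.6% of all genes, 10.2% higher and 3.38% lower), with a median log2 fold change of 0.907, against 0.161 for all genes. The fat body markers moved with this difference: all 8 had a read in both EcRi libraries, whose sums were 15716 and 22974 scaled RPM, against 7584 (8 with a read) and 4021 (7 with a read, Cyp4g1 at 0) in WT glands. The blood cell markers summed to 64.6 and 75.1 scaled RPM in EcRi glands, against 46.0 and 17.4 in WT glands, where 2 of the 8 had a read in replicate 2. The 5 tracheal markers summed to 554 and 724 scaled RPM in EcRi glands, against 479 and 416 in WT glands. The part of these cell types was not tested, and that of the WT library that stood apart was not tested beyond the values without each library.

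**Figure D5:**
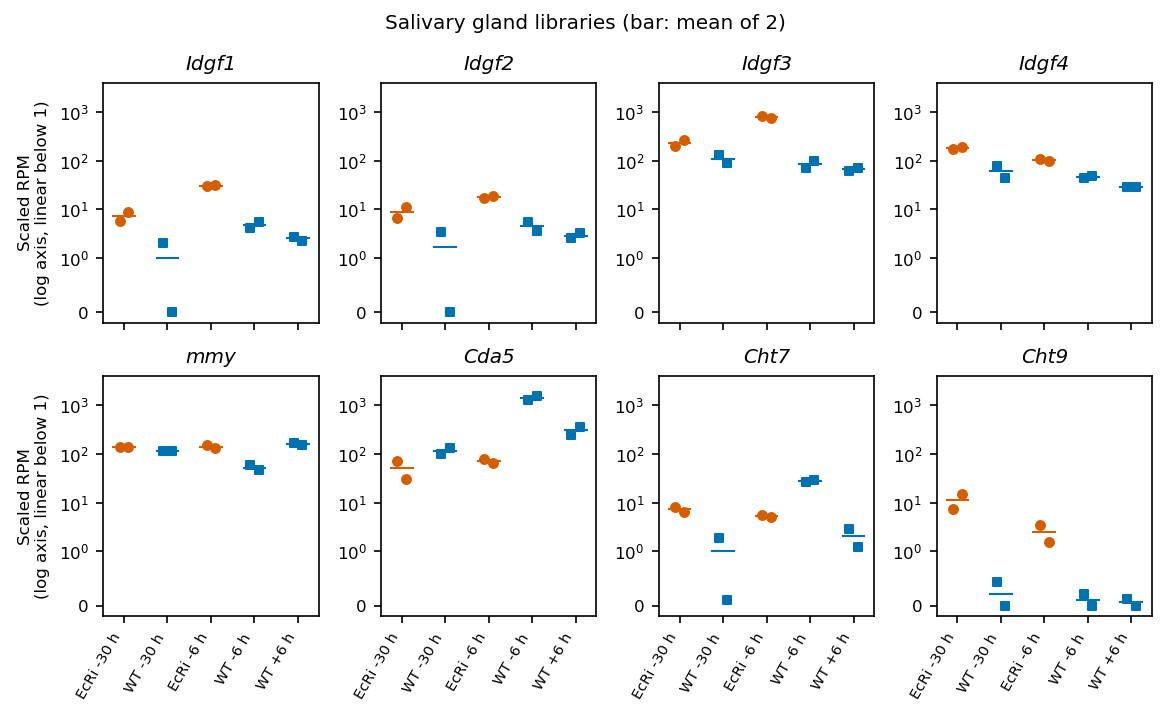
Scaled RPM (log axis, linear below 1) of 8 genes in salivary gland libraries, EcRi as orange circles and WT as blue squares, in the order EcRi and WT at -30 h, EcRi and WT at -6 h and WT at +6 h. Each point is a library and each bar the mean of 2. The 4 Idgf genes stand higher in EcRi than in WT glands at both times, Cda5 is low in EcRi glands at -6 h where WT glands peak, and Cht9 is near 0 in WT glands.

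Between -30 and -6 h EcRi glands showed some of the changes of WT glands and not others. Cht5 rose in EcRi glands, at 7.81 and 9.63 scaled RPM at -6 h, against 0.728 and 1.23 at -30 h (2.3 ± 0.28, adjusted p = 0.000214), as did Cht6, at 411 and 420.4 against 62.1 and 66.7 (2.67 ± 0.31, adjusted p = 0.00012). Idgf3 also rose, at 831 and 746 scaled RPM at -6 h, against 202 and 263 at -30 h (1.77 ± 0.31, adjusted p = 0.00346). In all 4 genes rose and 3 fell in EcRi glands (26.9%, against 4.4% of all genes, 2.65% higher and 1.75% lower), and the median log2 change was 0.02, against 0.01 for all genes. Cht9 fell, at 3.56 and 1.56 scaled RPM at -6 h, against 7.57 and 15 at -30 h (-1.78 ± 0.29, adjusted p = 0.00223), and was not called with voom. Of these, Cht5, Cht6, Cht9 and Idgf3 kept their calls without each library. Idgf1 (1.94 ± 0.43, adjusted p = 0.0132) was lost without EcRi gland -30 h replicate 1 (1.71), EcRi gland -6 h replicate 1 (1.97) or replicate 2 (1.92). Idgf6 (-1.83 ± 0.38, adjusted p = 0.00964) was lost without EcRi gland -30 h replicate 2 (-1.51) or EcRi gland -6 h replicate 1 (-1.41), and obst-E, at low levels, without any one of the 4 (-1.62 to -1.35).

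The EcRi change minus the WT change in glands was called higher for 3 genes and lower for 7 (38.5%, against 26.7% of all genes, 14.3% higher and 12.3% lower). Cht7, which rose by 4.0 in WT glands, differed by -4.39 ± 0.52 (adjusted p = 2.6e-05), Cda5 by -2.95 ± 0.52 (adjusted p = 0.000706) and Cht11 by -2.65 ± 0.62 (adjusted p = 0.00491). Idgf3 differed the other way, by 2.12 ± 0.44 (adjusted p = 0.00232). These 4 and Cht9 (-1.66 ± 0.42) kept their calls without each library, and Cht11 and Cht9 lost theirs with only the groups compared in the fit. The difference for mmy (1.16 ± 0.21, adjusted p = 0.000853) was lost without WT gland -6 h replicate 2 (0.90) and with median-of-ratios scaling. Cht5, Cht6 and Cht10 were not called, with rises in EcRi and WT glands of 2.3 and 2.34 for Cht5 and of 2.67 and 3.04 for Cht6.

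Whether the differences between EcRi and WT differed by tissue was tested as the wing difference minus the gland difference. At -30 h none of the 26 genes had a higher value and 9 a lower one (34.6%, against 7.94% of all genes, 1.38% higher and 6.57% lower). Idgf4 gave -2.14 ± 0.28 (adjusted p = 0.00041), with EcRi and WT wings at 94.1 and 105 against 147 and 139 scaled RPM, while in glands EcRi was the higher. Idgf6 gave -3.30 ± 0.54 (adjusted p = 0.00197) and Idgf3 -2.69 ± 0.44 (adjusted p = 0.00205). With only the groups compared in the fit, Cht7, Gasp, Idgf1, Idgf2, Idgf4 and obst-E were not called at -30 h. At -6 h 3 values were higher and 4 lower (26.9%, against 21.7%, 8.38% higher and 13.3% lower), with Cda5 at 5.30 ± 0.52 (adjusted p = 7.33e-06), Idgf1 at -2.54 ± 0.61 (adjusted p = 0.00715) and Idgf3 at -2.52 ± 0.44 (adjusted p = 0.000831). With voom Idgf1 and Idgf3 were not called. The share at -6 h lies near that of all genes, so it says little of these genes in particular. The gene mmy, higher in EcRi tissue of both kinds at -6 h (1.87 in wings and 1.42 in glands), was not called in this difference.

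The other genes of the pathway were read from a list of 12, of which 11 were found: the hexosamine steps before mmy (Pgi, Gfat2, Gnpnat and nst), the trehalase gene Treh, the chitin synthase gene Chs2, reb and exp, which act with kkv, and the hexosaminidase genes Hexo1, Hexo2 and fdl. In WT wings between -30 and -6 h 1 of the 11 rose and 2 fell (against 3.07% of all genes higher and 2.23% lower). exp was at 4.89 and 9.43 scaled RPM at -6 h, against 28.7 and 20.7 at -30 h (-1.70 ± 0.47, adjusted p = 0.0433), reb, under 5 scaled RPM, had -1.42 ± 0.29 (adjusted p = 0.00722), and Hexo1 rose by 1.07 ± 0.19. Between -6 and +6 h 7 of the 11 rose and none fell (against 10.6% and 6.06% of all genes), beside mmy and kkv. Hexo2 was at 49.9 and 60.6 scaled RPM at +6 h, against 0.354 and 0.776 at -6 h (5.18 ± 0.59), exp at 86.2 and 89.7 against 4.89 and 9.43 (3.50 ± 0.47), and Gnpnat at 91.4 and 85.4 against 30.5 and 32.3 (1.46 ± 0.29). Pgi rose by 1.43 ± 0.16, nst by 1.32 ± 0.27 and Treh by 1.14 ± 0.31. In WT glands over the same interval 1 rose and 2 fell (against 13.7% and 16.3% of all genes), with Gnpnat at 7.47 and 6.19 scaled RPM at +6 h, against 134 and 131 at -6 h (-4.10 ± 0.29).

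In EcRi against WT wings none of the 11 was called at either time, against 2.19% of all genes at -30 h and 1.78% at -6 h. With shares so low, this says little of these 11 in particular. In EcRi glands at -6 h none was higher and 3 were lower (against 17.2% and 9.77% of all genes): Pgi at 33.8 and 32.1 scaled RPM in EcRi glands, against 95.7 and 86.2 in WT glands (-1.44 ± 0.16), Gnpnat at 57.4 and 44.7 against 134 and 131 (-1.37 ± 0.29), and Hexo1 at 19.97 and 20.16 against 60.3 and 49.9 (-1.41 ± 0.19). Of the other steps before mmy, Gfat2 was at 60.9 and 47.0 scaled RPM in EcRi glands, against 75.7 and 55.9 in WT glands (-0.28 ± 0.36), and nst at 29.9 and 29.3 against 20.8 and 21.6 (0.46 ± 0.27), and neither was called. At -30 h 2 were higher and 2 lower in EcRi glands (against 10.2% and 3.38% of all genes), among them Treh (1.12 ± 0.31) and Gfat2 (-1.64 ± 0.36). In WT wings against WT glands 2 were higher and 6 lower at -30 h (against 18.8% and 12.1% of all genes), 1 and 3 at -6 h (against 25.3% and 19.2%), and 5 and 0 at +6 h (against 30.8% and 16.5%).

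Levels of different genes can be compared per exonic kilobase. In EcRi wings the gene with the highest mean was verm at both times, at 170.4 scaled RPM per exonic kilobase at -6 h, when obst-A followed at 169.4, and 90.4 at -30 h. WT wings were led by verm at -30 h (106), by Cht10 at -6 h (113.1) and by obst-A at +6 h (470.6), with Cht5 next (289). EcRi glands were led by Idgf3 at -6 h (199) and by Idgf4 at -30 h (98.8). WT glands were led by mmy at -30 h (51.9), by Cda5 at -6 h (128) and by Gasp at +6 h (80.7), with mmy next (72.9). The order depends on the length used, because the deposited values were scaled over gene spans with introns. Per kilobase of span, obst-A (96.2) led verm (77.2) in EcRi wings at -6 h, verm (44.9) led WT wings at -6 h, Idgf3 (25.4) led WT glands at -30 h and Cht5 (36.2) led them at +6 h, and the gene ahead was the one named above in the other 6 groups. The gene ahead differed between EcRi and WT glands at both shared times with either length, and neighbours such as verm and obst-A per exonic kilobase in EcRi wings at -6 h did not differ beyond the spread of their 2 libraries.

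The authors' deposited table gave the same direction wherever both it and the fit used here called a gene by the same thresholds, and no gene was called in opposite directions. In EcRi against WT glands the authors' deposited table had 2 of these genes higher and 3 lower at -6 h, all 5 among the 9 called here, and 5 higher and 2 lower at -30 h, of which 5 were among the 13 called here. In WT wings the authors' deposited table shared 6 of 6, 8 of 8 and 13 of 15 calls, and in wing against gland 18 of 19, 21 of 21 and 16 of 17. In WT glands it shared 8 of 11, 12 of 14 and 11 of 12. Between -30 and -6 h it shared 3 of 5 calls in EcRi wings and 4 of 7 in EcRi glands. In EcRi against WT wings both calls at each time were shared.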

How the data were processed

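Total RNA libraries came from a Tecan kit, per the labels' protocols. STAR 2.7.3a, SAMtools 1.9, DESeq2 and the dm6 genome are named in the submitters' processing notes, and the counter, annotation and strand setting are not given in the sources used here.

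The authors deposited a gene matrix under the name of counts, and its values are RPKM over the gene span, introns included. Whole reads were recovered from them: of 64619 values of up to 20 reads, 64619 came within 0.1 of a whole read. The length of 159 genes was searched for, 35 genes with no length were left out, and the reads recovered make up 99.666% to 99.97% of the depth. The authors deposited tables of their own comparisons with log2 fold changes and with p-values. Spans, exonic lengths and overlaps came from an Ensembl annotation of the same build.

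RPM values were scaled by TMM (30% of log ratios and 5% of levels trimmed, giving factors of 0.1977 to 2.0106). After adding 1, log2 values were fitted in limma 3.58.1 (R 4.3.3) with 1 mean per group over all 20 libraries, and variances were moderated with trend and robust settings. There were 10 residual degrees of freedom, the median of the prior ones was 3.42, and the median standard error was 0.287, or 0.406 for a difference between differences. The filter on low values asked for 0.558 scaled RPM (10 reads at median depth) in 2 or more libraries and for 15 reads overall. Calls needed an adjusted p under 0.05 over all genes tested and a change of at least 1 in log2. Where a library had no read of a gene, up to 3 reads (0.133 to 0.201 RPM) remain possible, from counting error only. The scripts were tested on simulated data. Figures used Python 3.11.15 and matplotlib 3.10.9.

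The genes, role groups, pathway list and marker lists were chosen with earlier results of these data known. In each comparison the called genes were named with values where the higher group reached 5 scaled RPM, and lower ones were not all named. Alternatives were other scalings, filters, pseudocounts, voom, a fit of only the groups compared, a block by replicate number and the removal of each library. The labels give no batch, so none was compared.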

Additional observations from a re-analysis of the deposited data

Results flagged for a closer look

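Each result here is a difference between 2 effects that was itself called by the limma test, and each is in log2 units. No explanation was tested.

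In wings, the EcRi change from -30 to -6 h minus the WT change was 2.29 for Idgf3 and 1.32 for mmy. In glands the same difference was 2.46 for obst-A, 2.12 for Idgf3 and 1.16 for mmy on the higher side. On the lower side it was -4.39 for Cht7, -2.95 for Cda5, -2.65 for Cht11, -1.82 for Idgf5, -1.66 for Cht9, -1.35 for obst-E and -1.11 for Gasp. In glands those of Cda5, Cht11, Cht7, Cht9 and Idgf3 were kept without each library in turn, and those of the other 5 genes were lost without at least 1. Without WT gland -30 h replicate 2, the library that stood apart, they were 1.36 for obst-A, -1.0 for Idgf5 and -0.70 for obst-E, none called.

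In WT animals the wing change minus the gland change between -30 and -6 h was 1.48 for knk. It was -6.06 for Cht7, -3.84 for Cht6, -3.38 for Cda5, -3.04 for Cht11, -2.89 for Idgf6, -2.60 for Idgf2, -2.34 for Idgf1, -1.96 for Gasp, -1.75 for obst-E and -1.67 for Idgf3. Those of Idgf1, Idgf2 and obst-E were lost without at least 1 library, and without WT gland -30 h replicate 2 they were -1.55, -1.53 and -1.10, still called.

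Between -6 and +6 h that difference was 5.41 for Cda5, 4.15 for Cht7, 2.73 for Idgf6, 1.92 for mmy and 1.91 for Cht11. It was -3.11 for obst-B, -2.97 for Idgf4, -1.62 for Gasp and -1.25 for verm, and those of Cht11 and verm were lost without at least 1 library. That of verm was -1.95 without WT gland -6 h replicate 1 and -1.94 without WT gland +6 h replicate 2.

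The difference between EcRi and WT in wings minus that in glands at -30 h was -3.84 for Cht9, -3.35 for Idgf2, -3.30 for Idgf6, -3.04 for Idgf1, -2.96 for Cht7, -2.69 for Idgf3, -2.29 for obst-E, -2.14 for Idgf4 and -1.85 for Gasp. At -6 h it was 5.30 for Cda5, 2.77 for Cht7 and 1.86 for Cht11, and -2.54 for Idgf1, -2.52 for Idgf3, -2.03 for Idgf4 and -1.63 for Cht9. At -30 h that of Idgf2 was not called without any one of 3 libraries (-3.18 to -2.85). At -6 h that of Cht11 was not called without any one of 6 of the 8 libraries (1.47 to 1.94), and that of Cht9 was -1.22 and not called without EcRi gland -6 h replicate 1.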

How the results depend on the processing

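Of 209 calls over 21 comparisons, 112 were kept under every alternative, 97 were lost under at least 1 and 0 were reversed. Calls lost numbered 5 with median-of-ratios scaling, 38 with voom, 51 when only the groups compared were fitted, and 54 without at least 1 library. Fitting only the groups compared gave other counts of called genes: 4 in WT gland -6 against -30 h, 7 in WT gland +6 against -30 h, 12 in wing against gland at -30 h, 4 in EcRi against WT wings at -30 h and 4 at -6 h, and 0 in EcRi against WT glands at -30 h (7 at an unadjusted p under 0.05, against 18 with limma over all libraries and 17 with voom). It gave 9 and 4 for the EcRi minus WT change in wing and gland, 5 for the wing minus gland change from -30 to -6 h and 3 for the wing minus gland effect of EcRi at -30 h. With voom the counts were 8 in WT gland +6 against -6 h, 4 in EcRi against WT wings at -6 h, 4 in EcRi gland -6 against -30 h, 5 for the EcRi minus WT change in gland and 3 for the wing minus gland effect of EcRi at -6 h. For the EcRi minus WT change in wing voom gave 0 (11 at an unadjusted p under 0.05, against 10 with limma on log2 values and 15 with only the groups compared). A pseudocount of 4 gave 1 in EcRi against WT wings at -30 h, and no filter gave 3 in EcRi wing -6 against -30 h. The cause was not tested.

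Without 1 library the counts ranged over 6 to 6, 7 to 8 and 13 to 15 in the WT wing intervals, 7 to 15, 13 to 15 and 11 to 18 in the WT gland intervals, and 17 to 22, 20 to 21 and 15 to 16 in wing against gland. They ranged over 0 to 2 and 1 to 2 in EcRi against WT wings, 4 to 18 and 8 to 10 in EcRi against WT glands, 1 to 4 over time in EcRi wings and 5 to 5 in EcRi glands. For the differences between effects they ranged over 0 to 2 and 5 to 18 (EcRi minus WT change), 9 to 17 and 7 to 9 (wing minus gland change), and 8 to 18 and 5 to 7 (wing minus gland effect of EcRi).

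Same-numbered libraries deviated together with correlations of -0.031 to 0.413 over 15 comparisons, and the labels do not pair them. A replicate block lost 1 of the calls, obst-E in the EcRi minus WT change in gland, whose adjusted p became 0.0511. It added 5 calls, with 20 in wing against gland at -30 h, 3 and 11 for the EcRi minus WT change in wing and gland (2 and 9 shared) and 12 for the wing minus gland change from -30 to -6 h. Genes under a few scaled RPM, and every comparison with WT gland -30 h, are limited by depth and by spread between 2 libraries.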
